A study of Rattus norvegicus with 10 samples.

Results

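The Sertoli cell, the nurse cell of the seminiferous tubule, secretes binding and carrier proteins into the tubule fluid. The genes studied here encode such proteins: the chaperone clusterin (Clu), transferrin (Tf), the androgen-binding protein (Shbg), ceruloplasmin (Cp), prosaposin (Psap) and the cystatins Cst3, Cst8, Cst9 and Cst12. They were described in testes of Zucker rats, in which the fa mutation of the leptin receptor gene causes obesity when inherited from both parents. The rule took the probe sets that carry 1 of these 9 symbols alone, and found 7 of 9 genes among 18166 named genes. Tf stood only on 2 probe sets shared with Srprb, and no probe set carried the symbol Cst9, so neither was analysed here. Each of the 7 genes had 1 probe set. All 7 genes lay above the median level of all genes, so a filter on dim genes removed none of them.

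All 10 Affymetrix arrays came from 14-week-old rats. Obese animals gave 4 arrays of testes with normal development and 4 of testes that had stayed under-developed, and lean animals gave 2 arrays of normal testes. All 3 groups are labelled with the model Zucker (fa/fa), and the lean samples carry the same collection text for obese rats, so the labels leave the lean genotype unclear. Replicates are named biological, but no label ties them to single animals, and p-values therefore cover only how far these samples differ from each other. No treatment is named. The values deposited by the authors are log2 expression per probe set after RMA, a method that corrects background and scales the arrays to each other. A difference of 1 on this scale is a 2-fold difference. The number of arrays limits the precision, above all the 2 arrays of lean rats.

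As background, a wall of tight junctions between Sertoli cells keeps blood proteins out of the tubule, so germ cells depend on what Sertoli cells deliver. Transferrin brings iron and ceruloplasmin binds copper and oxidises iron. The androgen-binding protein holds testosterone and its products in the tubule, and clusterin, a chaperone, also carries lipids. Prosaposin is cut in lysosomes into saposins, the helpers of sphingolipid breakdown. Cystatins inhibit cysteine proteases such as the cathepsins. Cst3 is made in most tissues and Cst12 is known from Sertoli cells. Cst8, also called CRES, is known from spermatids and the epididymis.

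The under-developed group was not uniform. Over all genes, the mean correlation with the 6 normal arrays was 0.856 for replicate 1, 0.946 for replicate 2 and 0.731 for replicate 3. For replicate 4 it was 0.995, as the normal arrays did among themselves (0.994 to 0.997). Genes are not independent replicates. The members are therefore given for each under-developed array, and the fit is given with and without replicate 4, a choice made with its values known. Whether the label of replicate 4 is right was not tested, and each difference fitted over all arrays takes it as labelled.

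In under-developed replicates 1 to 3, the 4 carriers, Cst3 and Cst12 lay above all 6 normal arrays, and Cst8 lay below them. Over all genes, 28.7% lay above and 26.7% below in these 3 arrays. Ceruloplasmin had the largest difference of the 7 and clusterin the smallest rise. Replicate 4 differed from the normal obese mean by −0.37 (Cst3) to 0.08 (Clu) log2. With all arrays, 0 of 7 members and 0 of 18166 genes (0%) passed in limma at an adjusted p under 0.05. At an unadjusted p under 0.05, limma gave 6 members higher and 1 lower, where 24.4% of all genes were higher and 22.3% lower. Over all genes this was 4425 higher and 4045 lower, which became 1777 and 7047 with arrays centred on ribosomal protein genes. Without replicate 4, limma called 6 members higher and 1 lower, where 29.6% of all genes rose and 26.4% fell (56% in all). With array weights, which gave replicate 4 the lowest weight (0.0619), the same 6 members rose and 1 fell, beside 28.4% and 25.9% of all genes. Replicates 2 and 3 also had low weights (0.282 and 0.186), so the weighted under-developed mean leaned on replicate 1 (0.967). The normal arrays had weights between 2.42 and 2.75.

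Array by array, the share of all genes that moved was large and differed, and the members are read against it. In replicate 1, 6 members lay above all 6 normal arrays (40.7% of all genes) and Cst8 below them (37.8%), in replicate 2 likewise 6 (34.2%) and 1 (38.3%), and in replicate 3 again 6 (49.5%) and 1 (32%). In replicate 4 Clu lay above (17.8%) and Cst8 and Cst3 below (18.6%). A rise of at least 2-fold over the normal obese mean was met by 6 members in replicate 1 (15.5%), 5 in replicate 2 (7.56%), 6 in replicate 3 (19.2%) and 0 in replicate 4 (0.0385%). Shbg, Cst12, Cst3, Cp and Psap met it in each of replicates 1 to 3, as did 7.39% of all genes. Cst8 was at least 2-fold lower in replicates 1 (15.6%) and 3 (16.8%), but not in replicate 2 (6.18%) or 4 (0.0055%), so 0 members were 2-fold lower in all 3 arrays (5.78%). Replicate 2 was the lowest of the 3 arrays for all 6 raised members, as for 87.5% of the 5211 genes raised in these arrays. Replicate 1 exceeded replicate 3 for Clu, Shbg, Cst12 and Cst3, as for 29.2% of those genes.

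**Figure D1:**
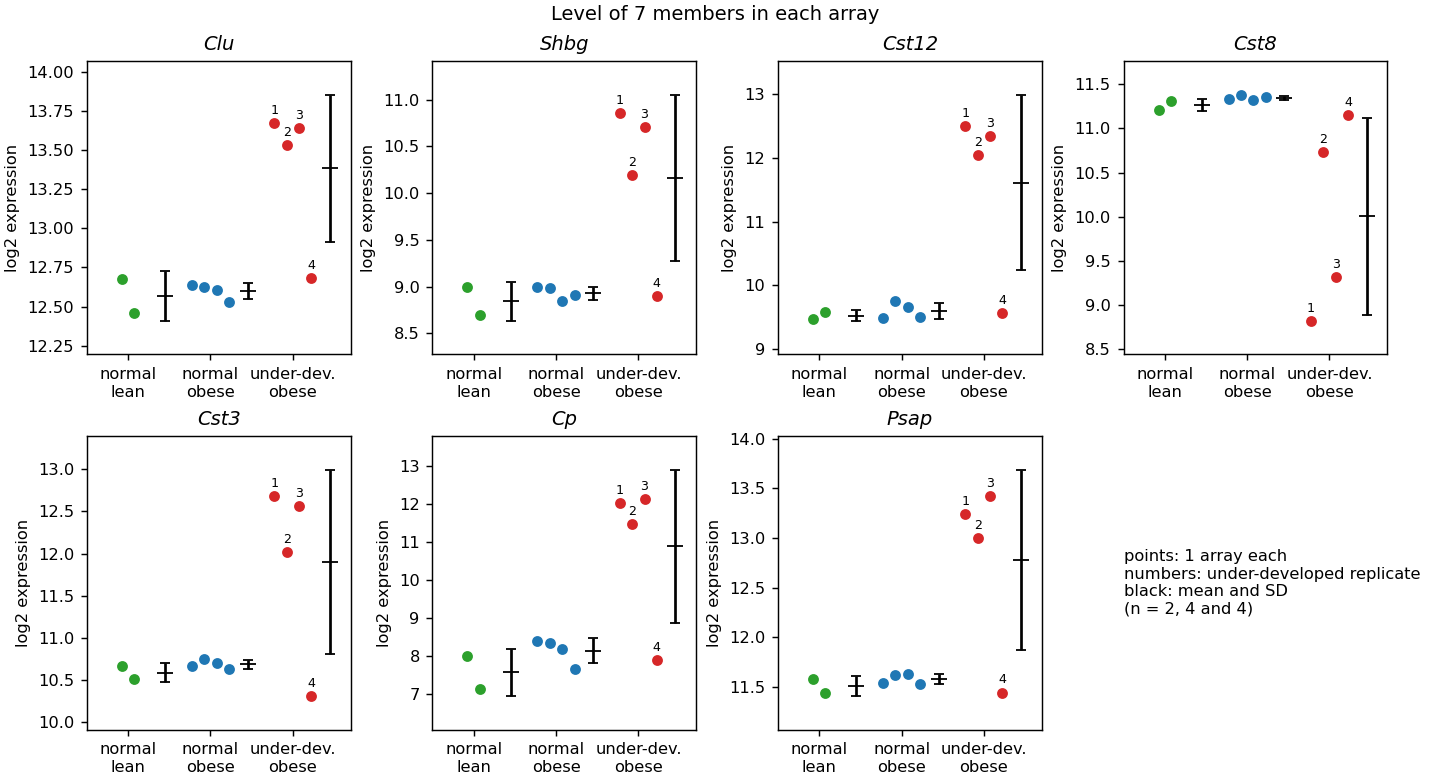
Log2 expression of the 7 members (vertical axes, 1 panel per gene, each with its own scale) in normal lean, normal obese and under-developed obese testes. Points are single arrays, the numbers name the under-developed replicates, and the black bars are the mean and SD (n = 2, 4 and 4). Under-developed replicate 4 sits near the normal arrays, apart from replicates 1 to 3 in all panels but that of Cst8, where replicate 2 lies closer to replicate 4 than to replicates 1 and 3.

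Among the carriers, Cp stood at 8.38, 8.34, 8.18 and 7.66 log2 in the 4 normal obese arrays. It stood at 8.001 and 7.13 in the lean arrays, and at 12.02, 11.47, 12.14 and 7.89 in under-developed replicates 1 to 4. Replicates 1 to 3 were thus far above every normal array, while replicate 4 lay inside the normal range. The differences from the normal obese mean were 3.88, 3.33, 4.00 and −0.25 log2, or 14.8-fold, 10.1-fold and 16.0-fold higher in replicates 1 to 3. In each of these 3 arrays the difference of Cp exceeded that of 99.9% of all genes. The fitted difference was 2.74 ± 0.85 (SE, n = 4 against 4, limma adjusted p = 0.0702), and 3.74 ± 0.27 without replicate 4 (limma adjusted p = 5.42e-05). Cp also varied most among normal testes, with 8.14 ± 0.33 (SD, n = 4) in obese and 7.57 ± 0.62 (SD, n = 2) in lean rats.

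Shbg, the gene of the androgen-binding protein, stood at 8.99, 8.98, 8.85 and 8.91 log2 in normal obese arrays and at 8.99 and 8.70 in lean arrays. Under-developed replicates 1 to 4 gave 10.86, 10.19, 10.70 and 8.91. Replicate 1 was the highest and replicate 2 the lowest of the 3 raised arrays. The differences were 1.92, 1.26, 1.77 and −0.03 log2, with a fitted difference of 1.23 ± 0.37 (SE, limma adjusted p = 0.0702) and of 1.65 ± 0.16 without replicate 4 (limma adjusted p = 1.11e-04).

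Psap, the prosaposin gene, stood at 11.54, 11.62, 11.63 and 11.53 log2 in normal obese arrays and at 11.58 and 11.44 in lean arrays. It stood at 13.24, 13.002, 13.43 and 11.44 in under-developed replicates 1 to 4. Here replicate 3 was the highest array. The differences were 1.66, 1.42, 1.85 and −0.13 log2, and the fitted difference was 1.20 ± 0.38 (SE, limma adjusted p = 0.0702), or 1.64 ± 0.12 without replicate 4 (limma adjusted p = 5.42e-05).

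Clu, the clusterin gene, stood at 12.64, 12.63, 12.61 and 12.53 log2 in normal obese arrays and at 12.68 and 12.46 in lean arrays. Under-developed replicates 1 to 4 gave 13.67, 13.53, 13.64 and 12.68. The under-developed and normal obese arrays did not overlap for Clu, as for 7.44% of all genes on the higher side, but replicate 4 exceeded the highest normal array by less than the normal arrays spread. The differences were 1.07, 0.94, 1.04 and 0.08 log2, which is 2.10-fold, 1.91-fold and 2.06-fold in replicates 1 to 3. The fitted difference was 0.78 ± 0.21 (SE, limma adjusted p = 0.0702), and 1.02 ± 0.10 without replicate 4 (limma adjusted p = 9.40e-05). Clu lies close to the top of the scale, with only 2 genes higher in replicate 1 and a highest value of 14.04 on any array. Whether that compresses its difference was not tested.

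**Figure D2:**
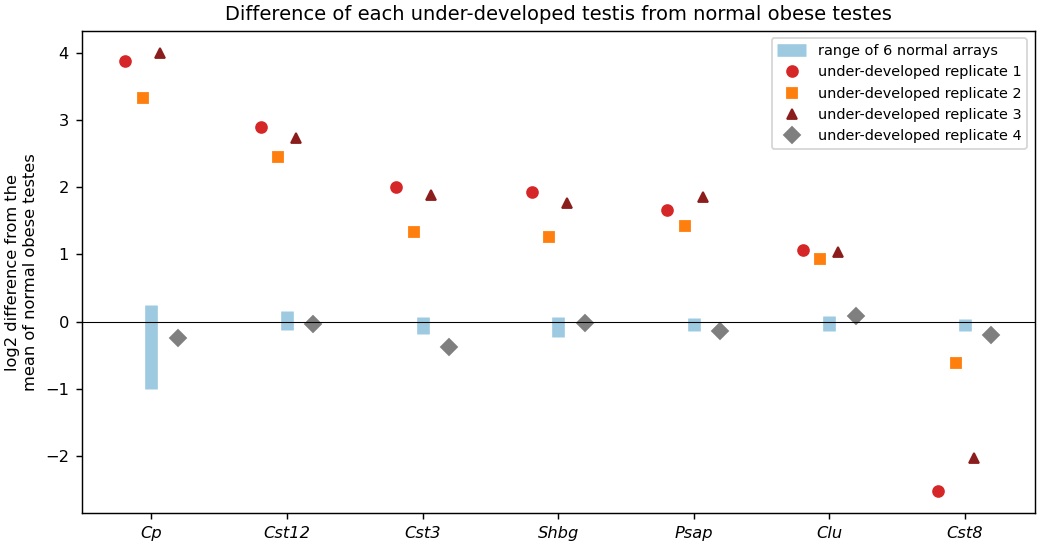
Log2 difference of each under-developed array from the normal obese mean (n = 4) (vertical axis) for the 7 members (horizontal axis). Symbols name the replicate and the blue bars span the 6 normal arrays around the same mean. Replicates 1 to 3 lie between 0.94 and 4.00 above for 6 genes and between 0.62 and 2.52 below for Cst8, and replicate 4 lies near 0.

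Among the cystatins, Cst3 stood at 10.66, 10.75, 10.70 and 10.63 log2 in normal obese arrays and at 10.67 and 10.51 in lean arrays. It stood at 12.68, 12.02, 12.57 and 10.31 in under-developed replicates 1 to 4. Replicate 4 lay below all 6 normal arrays for Cst3, as it did for 18.6% of all genes. The differences were 2.00, 1.34, 1.89 and −0.37 log2, with a fitted difference of 1.21 ± 0.45 (SE, limma adjusted p = 0.0762) and of 1.74 ± 0.16 without replicate 4 (limma adjusted p = 8.47e-05).

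Cst12 stood at 9.49, 9.76, 9.66 and 9.50 log2 in normal obese arrays and at 9.47 and 9.58 in lean arrays. Under-developed replicates 1 to 4 gave 12.50, 12.05, 12.34 and 9.57. The differences in replicates 1 to 3 were 7.43-fold, 5.45-fold and 6.67-fold, the largest among the 3 cystatin members. The fitted difference was 2.01 ± 0.57 (SE, limma adjusted p = 0.0702), and 2.69 ± 0.13 without replicate 4 (limma adjusted p = 4.65e-05).

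Cst8 went the other way. It stood at 11.33, 11.38, 11.32 and 11.36 log2 in normal obese arrays and at 11.21 and 11.31 in lean arrays. Under-developed replicates 1 to 4 gave 8.82, 10.73, 9.31 and 11.15. All 4 arrays lay below every normal array, as for 10.4% of genes on the lower side against the normal obese arrays alone, though replicate 4 lay close under the lowest normal array (11.15 against 11.21 in lean replicate 1). Replicate 2 stood between the normal arrays and replicates 1 and 3, with differences of −2.52, −0.62, −2.03 and −0.20 log2. The fitted difference was −1.34 ± 0.46 (SE, limma adjusted p = 0.0704), and −1.73 ± 0.37 without replicate 4 (limma adjusted p = 4.04e-03).

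Cst8 and Cst12 are direct neighbours in the RefSeq gene order of assembly GRCr8, inside a run of cystatin genes that reaches from Cstl1 to Cst3. The run holds 12 genes, of which 9 had a probe set. It was chosen by position after the values of the members were known, and all its measured genes are given. In order, these are Cstl1, Cst11, Cstdc1, Cst12, Cst8, Cst13, Cst9l, Cstdc2 and Cst3. Without replicate 4, 5 of the 9 rose, 3 fell and 1 was not called in limma, where 29.6% of all genes rose and 26.4% fell. With all arrays 0 of the 9 passed.

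The genes that fell were Cstl1, Cst8 and Cst13. The normal obese level of Cstl1 was 9.82 ± 0.08 (SD, n = 4), and its differences in replicates 1 to 4 of the under-developed group were −3.65, −1.36, −3.87 and −0.07 log2. Cst13 stood at 9.73 ± 0.09 and differed by −3.67, −1.43, −4.14 and −0.28. Both lay further below their normal level than Cst8 in replicates 1, 2 and 3. Their fitted differences without replicate 4 were −2.96 ± 0.52 (SE) for Cstl1 and −3.08 ± 0.54 for Cst13 (limma adjusted p = 1.40e-03 and 1.43e-03).

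The genes that rose were interspersed with these. Cst9l, which RefSeq also lists under the name Cst9, differed by 1.96, 1.27, 0.77 and −0.06 log2. Replicate 3 was the lowest of the raised arrays for Cst9l, as it was for Cstdc2 and Cstdc1. Cstdc2 differed by 3.23, 3.48, 2.60 and 0.14 and Cstdc1 by 1.24, 1.32, 1.18 and 0.04, so that replicate 2 was the highest array for both. Cst11, known from the epididymis, differed by 0.20, −0.10, −0.04 and 0.0081 and stood at 3.91 ± 0.10 (SD, n = 4), low on the scale. Related cystatins can share sequence, and how far their probes cross-hybridise was not tested.

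**Figure D3:**
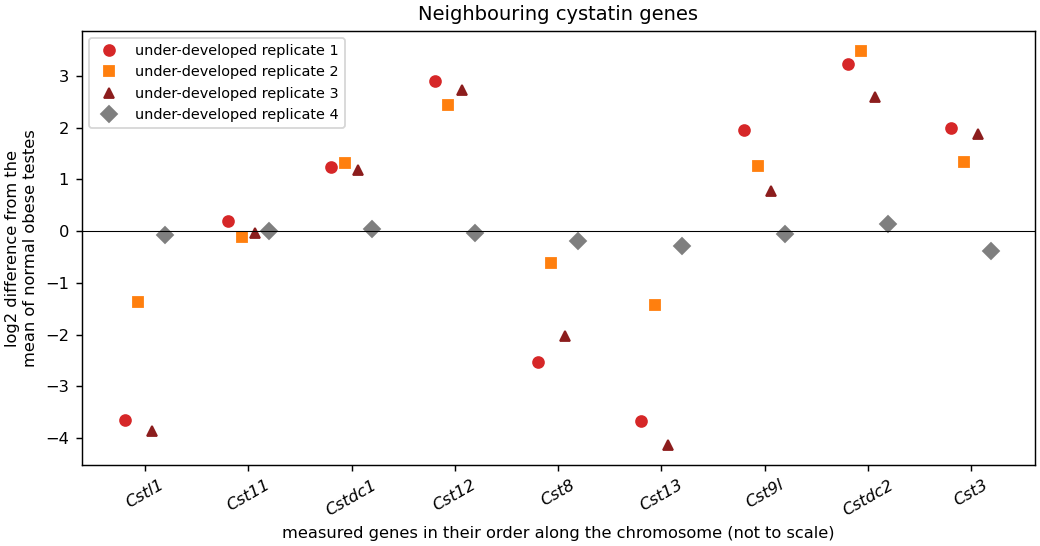
Difference of each under-developed array from the normal obese mean in log2 units (vertical axis) for the 9 measured genes of the cystatin run in their chromosomal order (horizontal axis, not to scale). Symbols name the replicate. Cstl1, Cst8 and Cst13 lie below 0 in replicates 1 to 3, and Cstdc1, Cst12, Cst9l, Cstdc2 and Cst3 lie above 0.

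Promoter sequences of the neighbours that moved apart, Cst12 and Cst8, are shown with that of Cst3, which rose with Cst12, and that of Cp, which rose most. Each is the run of 250 bases before the RefSeq start in GRCr8, read 5′ to 3′ on the gene's strand. Capitals mark matches, on either strand, to the motifs searched. Cst12 lies on the + strand (chr3:156687942-156688191), Cst8 on the + strand (chr3:156697526-156697775), Cst3 on the − strand (chr3:156793938-156794187) and Cp on the + strand (chr2:104368420-104368669).
Cst12: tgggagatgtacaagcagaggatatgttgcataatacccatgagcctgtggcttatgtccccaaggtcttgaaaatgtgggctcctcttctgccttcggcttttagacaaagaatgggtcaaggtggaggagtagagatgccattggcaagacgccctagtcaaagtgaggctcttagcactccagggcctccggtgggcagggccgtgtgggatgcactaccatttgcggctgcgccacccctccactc
Cst8: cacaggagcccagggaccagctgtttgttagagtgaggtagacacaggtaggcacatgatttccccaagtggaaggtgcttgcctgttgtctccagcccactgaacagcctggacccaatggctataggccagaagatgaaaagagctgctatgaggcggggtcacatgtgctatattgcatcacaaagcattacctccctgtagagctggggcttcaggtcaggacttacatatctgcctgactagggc
Cst3: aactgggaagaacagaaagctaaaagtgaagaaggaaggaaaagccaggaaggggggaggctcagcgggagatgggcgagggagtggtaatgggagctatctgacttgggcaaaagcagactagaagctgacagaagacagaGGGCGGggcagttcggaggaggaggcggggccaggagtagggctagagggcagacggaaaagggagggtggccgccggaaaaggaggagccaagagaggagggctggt
Cp: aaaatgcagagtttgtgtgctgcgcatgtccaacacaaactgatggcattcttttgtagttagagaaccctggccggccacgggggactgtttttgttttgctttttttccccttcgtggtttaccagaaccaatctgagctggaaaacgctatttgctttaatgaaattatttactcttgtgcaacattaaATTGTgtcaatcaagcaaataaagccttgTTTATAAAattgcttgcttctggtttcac

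Among 33469 promoters of this length, the cAMP response element, TGACGTCA, was held by 1.59% and its core, TGACG, by 18.2%. The site of the steroidogenic factor NR5A1, AAGGTCA, was held by 3.99%. The core of SOX factors, ACAAT, was held by 30% and that of the zinc finger factors of the Gata family, AGATAA, by 10.3%. The AP-1 site, TGANTCA, was held by 6.34%, the GC box for Sp1, GGGCGG, by 30.5% and the box bound by the general factor TBP, TATAAA, by 12.9%. TGACG lies within TGACGTCA, so matches to these overlap. The Cp window held a TATA box on both strands (TTTATA and TATAAA, sharing letters), starting 29 and 27 bases before the start, and ATTGT, the reverse of the SOX letters, at 58 bases. The Cst3 window held a GC box at 108 bases. The windows of Cst12 and Cst8 held none of these letters. The windows of Cst12 and Cst3 counted 6 and 8 CG pairs and that of Cst8 counted 1, where the median promoter has 5.0. The window of Shbg held AGATAA at 214 bases, and no promoter was given for Clu and Psap.

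The labelled tissue and the cells that could carry the members were checked with marker lists. Of 18 Sertoli markers, 11 rose, 1 fell and 6 were not called in limma without replicate 4, where 29.6% of all genes rose and 26.4% fell. With all arrays 0 passed. The tight junction gene Cldn11 differed by 2.49, 2.13, 2.86 and −0.0039 log2, the Kit ligand gene Kitlg by 2.73, 1.73, 2.67 and 0.05, and Fshr, the receptor of follicle-stimulating hormone, by 2.39, 1.62, 2.38 and 0.27. The mean of the Sertoli markers lay between 7.59 and 7.73 in normal obese, 7.57 and 7.66 in lean and 7.69 and 8.83 in under-developed arrays.

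Spermatid markers went with Cst8. Of 19 spermatid markers, 16 fell, 0 rose and 3 were not called, and of 9 spermatocyte markers 9 fell, without replicate 4, beside 26.4% of all genes. The fitted differences without replicate 4 were −3.71 for Spem1, −2.99 for the transition protein gene Tnp2 and −2.97 for the acrosin gene Acr. The spermatocyte genes Piwil1, Hormad1 and Sycp1 had −3.23, −2.61 and −2.52. The mean level of the spermatid list was between 12.01 and 12.05 in normal obese testes and 9.67, 11.29, 7.71 and 11.98 in under-developed replicates 1 to 4. Replicate 3 thus had the lowest mean of the spermatid list, whereas Cst8 was lowest in replicate 1. Prm1 and Prm2 were also lowest in replicate 1, but most genes of the list were lowest in replicate 3, among them Spem1, Tnp2 and Acr. The median difference of the list was −2.32 log2 in replicate 1 and −4.58 in replicate 3. Cst8 thus differed from most spermatid markers in the order of these arrays. In RNA of whole testes, fewer cells of a type and less RNA per cell cannot be told apart.

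Markers of other somatic cells moved with the carriers. Without replicate 4, 15 of 16 macrophage markers rose and 1 fell, 11 of 11 fibroblast and peritubular markers rose, 6 of 6 endothelial markers rose and 6 of 9 Leydig markers rose in limma, beside 29.6% of all genes. Fitted differences without replicate 4 were 3.35 for the lysozyme gene Lyz2, 3.01 for Cd74 and 2.86 for Cd163. They were 2.90 for Bgn, 2.74 for Pdgfra and 2.55 for Dcn of the fibroblast list, 1.88 for Cdh5, 1.58 for Emcn and 1.13 for Tie1 of the endothelial list, and 2.25 for Insl3, 1.84 for Cyp17a1 and 1.42 for Star of the Leydig list. The mean of the macrophage list lay between 6.94 and 7.32 in normal obese, 6.88 and 7.13 in lean and 7.08 and 9.21 in under-developed arrays. Macrophages also make prosaposin, Cst3 and ceruloplasmin, and the part of these cells in the results was not tested. Ceruloplasmin is also a product of the liver. Of 11 liver and plasma markers 0 rose, 4 fell and 7 were not called, where 26.4% of all genes fell. The mean of the liver list lay between 5.78 and 5.81 in normal obese, 5.86 and 5.88 in lean and 5.48 and 5.77 in under-developed arrays. Fgg, Serpina1 and Fgb had fitted differences of −0.98, −0.73 and −0.62 without replicate 4. Of 18 epididymis markers, 1 rose, 3 fell and 14 were not called, with −2.33 for Cuzd1, −0.87 for Lcn9 and −0.61 for Ros1. Of 4 red blood cell markers 2 rose, with 1.46 for Hbb-b1 and 1.45 for Hba-a1, while Ahsp stood at −0.08. No marker was listed at 0, since the lowest log2 value on any array was 2.28, so a value of 0 could not mark an absent gene. The mean of the epididymis list lay between 5.23 and 5.26 in normal obese arrays. Like that of the liver list, it was below the lowest array median (6.14). How much of these low levels is background was not tested.

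Set against the Sertoli markers of the same array, the members kept their spacing, since the same marker mean is subtracted from each. What changes is their place relative to that mean. The mean difference of the 18 markers was 1.12, 0.73, 1.17 and 0.03 log2 in under-developed replicates 1 to 4. This mean covers markers that did not move alike (11 rose, 1 fell and 6 were not called without replicate 4). Krt18 differed by −0.26, −0.27 and −0.19 in replicates 1 to 3, Ptgds by 1.02, −0.19 and −1.37 and Cldn11 by 2.49, 2.13 and 2.86. Krt18, Amh, Sox9 and Dhh had normal obese means of 5.19, 5.66, 5.88 and 6.13, below the lowest array median (6.14), though Dhh rose (1.90, 1.81 and 2.47). How far such dim markers lower the marker mean was not tested. The markers Cldn11, Kitlg and Fshr rose more than Shbg, Cst3 and Psap in each of replicates 1 to 3. Cst12 rose more than these markers in replicates 1 and 2, but in replicate 3 less than Cldn11 (2.74 against 2.86). Kitlg came close to Cst12 in replicates 1 (2.73 against 2.89) and 3 (2.67 against 2.74). Beyond this mean, Cp differed by 2.76, 2.60, 2.83 and −0.27 and Cst12 by 1.77, 1.71, 1.57 and −0.06. Clu lay on either side of the marker mean, with −0.05, 0.20, −0.12 and 0.06. Shbg, Cst3 and Psap lay between, at 0.53 to 0.87 beyond the marker mean in replicates 1 to 3, and Cst8 at −3.65, −1.35 and −3.20. With arrays centred on these markers and all arrays in the fit, a setting added with the data known, Cp (1.98 ± 0.63, SE) and Cst12 (1.25 ± 0.37) were higher and Cst8 (−2.11 ± 0.65) was lower, each with a limma adjusted p = 0.0352. Under this centring 3.41% of all genes were called higher and 55.1% lower. Clu had a difference of 0.02 ± 0.14 (limma adjusted p = 0.895), and the adjusted p of Shbg, Psap and Cst3 was 0.0593, 0.0838 and 0.144 in limma.

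**Figure D4:**
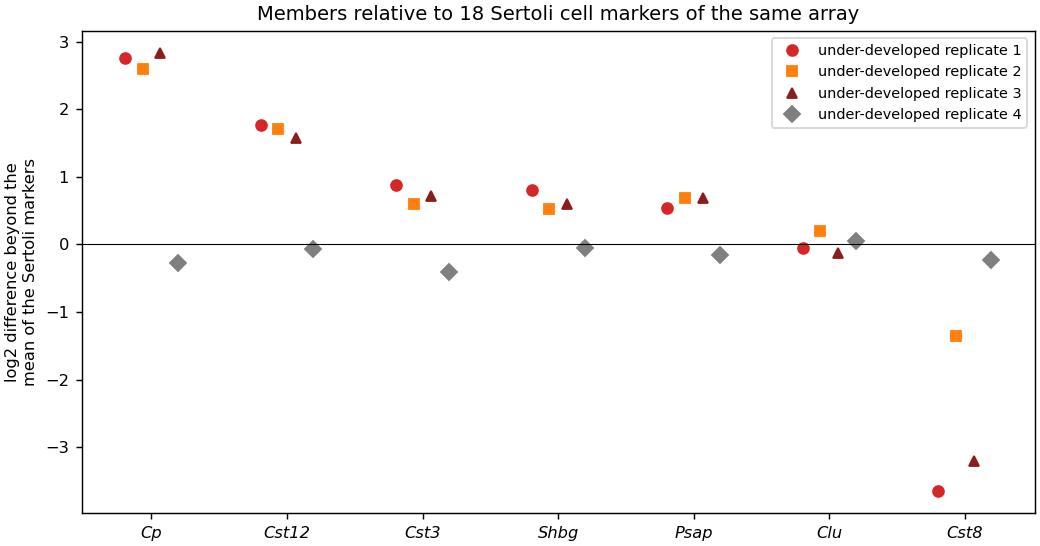
Difference of each member from its normal obese mean beyond the mean difference of 18 Sertoli markers on the same array, in log2 units (vertical axis), for the 7 members (horizontal axis). Symbols name the under-developed replicate. Cp and Cst12 lie at 1.57 or more above the marker mean in replicates 1 to 3, Clu lies near 0 and Cst8 lies below. The same mean is subtracted from each member, so gaps between members of an array are unchanged. The place of the 0 line depends on the marker list, which holds genes that did not move alike.

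The proteins on which the members act were followed in lists of named genes. Counts are from limma without replicate 4, where 29.6% of all genes rose and 26.4% fell, and each list is read beside these shares. With all arrays 0 genes of each list passed. The lysosomal proteases, which cystatins inhibit in part, all rose (11 of 11, median difference 2.18 log2, where the median of all genes was 0.07). Lgmn, the protease legumain, differed by 3.35, 2.46, 3.54 and 0.02 log2, in the order of replicates 1 to 4, as do all values that follow. Ctsb differed by 2.89, 2.44, 3.06 and −0.03, Ctss by 3.12, 1.79, 2.71 and −0.13, and Ctsa, which is a serine protease, by 2.79, 1.89, 2.97 and −0.31. Of 14 other cystatins 4 rose, 4 fell and 6 were not called, with a median of 0.11, where 29.6% of all genes rose and 26.4% fell. This list does not hold Cstdc1 and Cstdc2, described above. Cstb, a cystatin that stays inside the cell, was among those that rose (1.58, 0.98, 1.29 and −0.12).

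Of 9 sphingolipid hydrolases that work with saposins or act beside them, 5 rose, 3 fell and 1 was not called, beside 29.6% and 26.4% of all genes. Gla, the alpha-galactosidase gene, differed by 2.17, 1.33, 2.02 and −0.26 log2, and Gm2a, the gene of the GM2 activator, by 1.92, 1.44, 1.82 and −0.14. Asah1, the acid ceramidase gene, differed by 1.85, 0.90, 1.59 and −0.15. Arsa, the arylsulfatase A gene, fell (−2.02, −1.24, −1.67 and −0.13). Of 10 receptors for clusterin, prosaposin and their route to lysosomes, 5 rose, 3 fell and 2 were not called. Lrp1 differed by 2.74, 2.04, 3.09 and −0.03, and the mannose 6-phosphate receptor genes M6pr by 2.30, 1.37, 2.17 and −0.51 and Igf2r by 1.89, 1.17, 1.99 and 0.03. Those that fell were Lrp8 (−2.01, −1.65, −2.39 and 0.22), Lrp2 (−1.21, −0.72, −1.12 and 0.30) and Vldlr (−0.94, −0.31, −1.64 and −0.04), all endocytic receptors of the LDL receptor family. Lrp2 and Vldlr were named after their values had been seen.

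Of 21 genes of iron handling, 14 rose, 3 fell and 4 were not called (median 0.81 log2). Hamp, the gene of the iron hormone hepcidin, differed by 2.90, 2.85, 3.92 and −0.21 log2, and Ftl1, the ferritin light chain gene, by 1.87, 1.21, 1.81 and −0.11. Aco1, the iron sensor, differed by 2.06, 1.42, 2.26 and −0.15, and the mitochondrial ferritin gene Ftmt by −1.48, −0.95, −3.08 and 0.03. Tfrc, the transferrin receptor gene, which was named after its values had been seen, fell as well (−0.48, −0.66, −0.94 and 0.04). Of 11 copper genes 5 rose, 1 fell and 5 were not called (median 0.27). The paired copper pumps differed in sign, with Atp7a at 1.60, 0.99, 1.93 and 0.05 and Atp7b, which loads ceruloplasmin with copper in the liver, at −1.53, −0.89, −1.37 and 0.10. Mt3 and Cox17 differed by 1.52, 1.15, 0.91 and −0.19 and by 1.25, 1.05, 1.34 and −0.37.

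Of 6 genes of androgen action and steroid carriers, 3 rose and 3 were not called. Srd5a3, of the steroid reductase family, differed by 2.68, 1.91, 3.18 and 0.07 log2, and the hydroxysteroid dehydrogenase gene Akr1c14 by 3.03, 1.93, 2.75 and −0.18. Esr1, an estrogen receptor gene, had 0.28, 0.32, 0.93 and −0.11, and Serpina6, the gene of the corticosteroid-binding globulin, −0.0069, 0.17, 0.15 and 0.28. With arrays centred on ribosomal protein genes, the fitted difference of both over all arrays turned negative (−0.15 and −0.36). Of 28 other proteins listed as secreted by Sertoli cells or set at their surface, 21 rose, 1 fell and 6 were not called (median 1.59). Timp1, which blocks metalloproteinases, differed by 3.85, 3.21, 3.74 and −0.37, the protease inhibitor A2m by 2.88, 2.32, 2.97 and −0.07, and Igfbp3 by 3.17, 1.77, 2.88 and −0.05. Several of these are also made by interstitial cells.

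**Figure D5:**
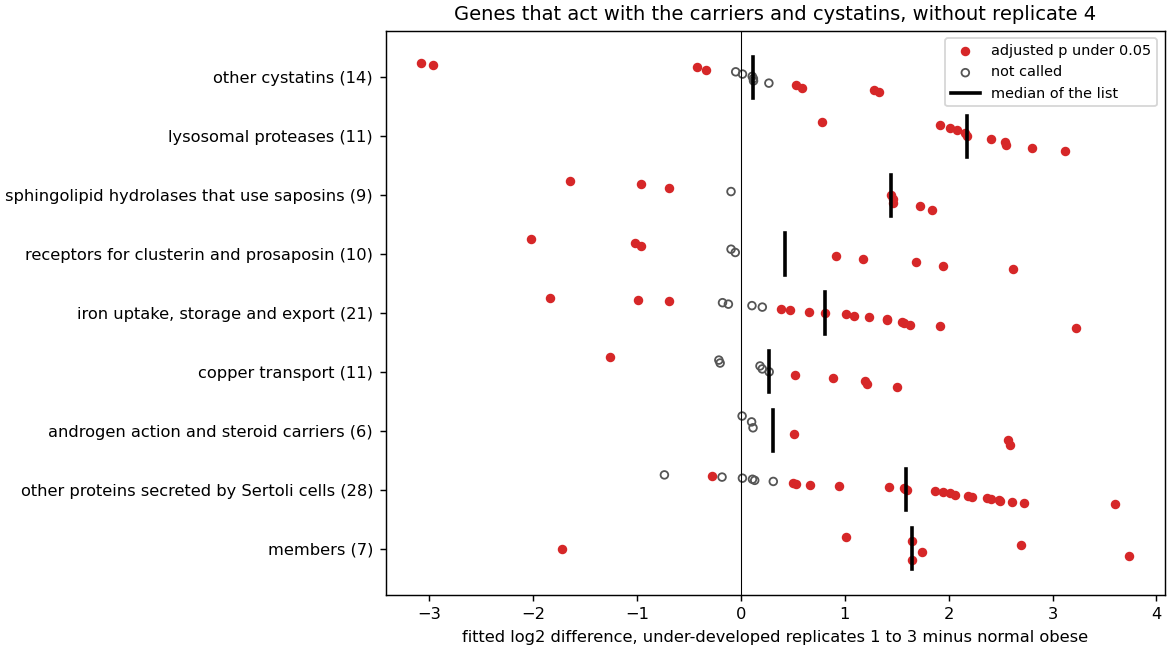
Fitted log2 difference of under-developed replicates 1 to 3 from normal obese testes (horizontal axis) for each measured gene of 8 lists and for the 7 members (rows, with the number of genes). Filled points passed limma at an adjusted p under 0.05, open points did not, and the black bars are the medians of the lists. The median is 2.18 for lysosomal proteases and 0.11 for other cystatins.

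The genes most alike in pattern were taken by Pearson's r of log2 values over all 10 arrays, which share the same 3 raised arrays. These were Gstm6, C7 and Ripk2 for Clu (r of 0.996, 0.996 and 0.996), Tubb5, Il10rb and Mbnl3 for Shbg (0.998, 0.998 and 0.998), and B2m, Itgb1 and Vim for Cp (0.998, 0.998 and 0.998). Psap was most like Abca1, Reep5 and Cldn11 (0.999, 0.999 and 0.998), Cst3 most like Kdelr1, Hmgn1 and Mbd2 (0.999, 0.998 and 0.998), and Cst12 most like Tpt1, Cfd and Ctsl (0.998, 0.997 and 0.997). Cst8 was most like Cbx5, MGC93861 and Akr1e2 (0.995, 0.994 and 0.993). Likeness of this size was common, since between 788 genes (Cst8) and 2601 genes (Shbg) reached an r of at least 0.95 with a member.

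The comparison of obese and lean rats with normally developed testes bears on obesity without under-development. In limma 0 of 7 members and 0 of 18166 genes (0%) passed, and at an unadjusted p under 0.05 there were 0 members beside 0.121% of genes higher and 0.319% lower. The fitted differences, obese minus lean, lay between 0.03 (Clu) and 0.10 (Cst3) for 6 genes and at 0.57 for Cp. The difference of Cp rested on the lean arrays, with 0.14 without lean replicate 2 and 1.01 without lean replicate 1. The fit of all arrays carries the wide spread of the under-developed arrays. When the fit held normal testes only, the difference of Cp was 0.57 ± 0.26 (SE, 95% interval −0.04 to 1.18, limma adjusted p = 0.776). The same fit gave 0.09 ± 0.10 for Shbg (−0.14 to 0.31) and 0.08 ± 0.07 for Cst8 (−0.07 to 0.24). Lean replicate 2 was the lowest of the 6 normal arrays for Clu, Shbg, Cst3, Cp and Psap, as for 17.5% of all genes, and lean replicate 1 for Cst12 and Cst8, as for 18.3%. Lean replicate 2 also had the lowest mean of the macrophage (6.88) and fibroblast (7.10) lists, and their part in the result was not tested.

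Under-developed testes of obese rats were also set against normal testes of lean rats, a comparison that shares the under-developed arrays with the first. Here too 0 of 7 members and 0 genes (0%) passed in limma with all arrays, and at an unadjusted p under 0.05 there were 6 members, all higher, where 17.5% of all genes were higher and 14.3% lower. This count rested on both lean arrays: without lean replicate 1 it was 3 members (1029 of all genes) and without lean replicate 2 it was 0 (745 genes), where it had been 5776 genes. In the fit of these groups alone it was 2 members (881 genes). Over all genes the split of 3186 higher and 2590 lower became 2476 and 3388 with arrays centred on their median and 1185 and 6196 with ribosomal centring. The fitted differences were 3.31 for Cp, 2.09 for Cst12, 1.32 for Shbg, 1.31 for Cst3, 1.27 for Psap, 0.82 for Clu and −1.26 for Cst8, with limma adjusted p of 0.154 (0.159 for Cst8). Without replicate 4, limma called 6 members higher and 1 lower, beside 25.6% and 23.2% of all genes.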

How the data were processed

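Whole-testis RNA was measured on 10 Affymetrix arrays. The authors deposited log2 values per probe set, made with RMA per the submitters' processing notes; its settings, software version and annotation build are not given in the sources used here. RMA also scales the arrays to each other, so shifts shared by most genes may be reduced. Of 36685 probe sets, 18511 had 1 gene symbol in the platform annotation, 575 had several and 17599 had none. Only those with 1 symbol were used, as 18166 genes. Groups were taken from the sample titles. One limma fit (limma 3.58.1, R 4.3.3) with a mean per group over all 10 arrays gave each comparison, two-sided, with Benjamini-Hochberg adjustment over all genes and a threshold of 0.05. It was tested on simulated data in which every group had the spread of the normal obese arrays. The median SD per gene was 0.10 in these and 0.36 in the under-developed arrays. That test therefore does not cover the wider spread of the under-developed arrays. Summaries used Python 3.11.15.

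The members and gene lists were chosen with earlier results of these data known. All members are named. The 4 genes of each pathway list and the 3 of each marker list with the largest fitted difference are named too, as are the 3 genes most alike to each member. Alternatives were other scalings, a dim-gene filter, array weights, the replicate number as a block and leaving out each array. Promoters are from RefSeq, GRCr8.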

Additional observations from a re-analysis of the deposited data

Results flagged for a closer look

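Of 14 groups of 4 arrays examined for the 7 members, 3 held an array far from the others by Dixon's criterion, which chance meets in about 1 in 20 groups. Each was under-developed replicate 4, which lay low, near the normal arrays. The 3 genes had r of 0.983 to 0.992 with each other over all 10 arrays. The 3 flags are therefore not independent and cannot be counted against that rate. Its level of Clu was 12.68 log2, with a gap to the next array of 0.862 of the group's range. Its level of Cst12 was 9.57 (0.847 of the range), and its level of Cp was 7.89 (0.843 of the range).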

How the results depend on the processing

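The count of members called rested on under-developed replicate 4. When 1 array at a time was left out, limma called 0 to 7 members against normal obese testes and 0 to 7 against lean testes, and 0 to 10171 and 0 to 8866 of all genes; the 0 held for each array but replicate 4. With array weights, 7 members were called in each of these comparisons, with 9862 and 9620 genes, and 1 gene between obese and lean normal testes. The fit of the 2 normal groups alone also called 1 gene. Centring on the Sertoli markers, added with the data known, called 3 members and 10635 genes against normal obese testes and put the median difference of all genes at −0.70 log2. It stood at −0.45 with centring on ribosomal protein genes and at 0.06 as deposited. In the comparison with normal obese testes all 7 members kept their direction under every setting run. Esr1 turned to −0.15 and −0.41 and Serpina6 to −0.36 and −0.61 with ribosomal and Sertoli centring. Cst11 had no stable sign, at −0.064 with median centring, −0.49 and −0.75 with ribosomal and Sertoli centring, −0.090 with renewed quantile normalization and −0.047 to 0.058 with 1 array left out.

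Between obese and lean normal testes the small differences changed sign. With ribosomal centring Clu stood at −0.058, Shbg at −0.0028, Cst12 at −0.014, Cst8 at −0.0053 and Psap at −0.020, and with Sertoli centring Clu stood at −0.015. With 1 array left out Clu ranged from −0.079 to 0.14 and Shbg from −0.060 to 0.23. Cp ranged from 0.14 without lean replicate 2 to 1.01 without lean replicate 1, and stood at 1.12 with the replicate block. For samples with the same replicate number, deviations from the group means had r between −0.056 and 0.26, above 0.1 in some pairs but not in all. Samples with unlike numbers were not compared, so these values cannot show whether the number marks a pairing. With the replicate block, limma called 0 genes and 0 members in all 3 comparisons, and Cst8 stood at −0.026 between obese and lean testes. Beyond settings whose construction shows it, the cause was not tested. Array number and probe signal, not read depth, limit these values.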
